A study of Mus musculus with 6 samples.

Results

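The RASSF family, genes whose proteins carry a Ras association domain, was followed in whole embryonic hearts of wild-type mice and of siblings labelled FOG-2R3K5A. Its 8 members here are Rassf1 to Rassf8, taken by gene symbol out of 18193 genes that had a probe set annotated to exactly 1 symbol. They were read by 20 probe sets, and each gene was represented by the probe set with the highest mean over all arrays, a choice that does not use the genotype. The rises of Rassf4 and Rassf5 on these arrays were already known when the family was chosen, so the number of members that changed says nothing about the family as a whole.

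Hearts were taken at embryonic day 16.5 from crosses of heterozygotes on a mixed background of C57/B6 and 129 S6, and total RNA of 3 wild-type and 3 FOG-2R3K5A samples was hybridised to 1 Affymetrix array each. FOG-2, the protein made from Zfpm2, works with GATA transcription factors in the heart, and its R3K5A form, altered at the amino terminus, is known not to recruit the chromatin remodelling complex NuRD. The labels give neither the zygosity of the FOG-2R3K5A hearts nor whether a sample was 1 heart or a pool, so p-values measure the spread between these 6 samples. The allele changes amino acids, so its transcript level does not check the labels. Zfpm2 read 10.07, 10.13 and 10.14 log2 units in wild type and 10.59, 10.55 and 10.52 in FOG-2R3K5A. It was called higher, without overlap, at a difference of 0.44 (limma, adjusted p = 0.0134 over all genes tested).

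RASSF proteins are adaptors without enzymatic activity. In the classical members, Rassf1 to Rassf6, the Ras association domain is followed by a carboxy-terminal SARAH domain, through which they bind the Mst kinases of the Hippo pathway, a growth-restraining kinase cascade. Rassf7 and Rassf8 carry the Ras association domain at the amino terminus and lack the SARAH domain. In the heart, Rassf1 and the Mst kinases are known for limiting growth and for promoting cell death under stress.

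Median intensities ran from 77.4 to 84.1 over the arrays. Pairs of wild-type arrays correlated at 0.982 to 0.986 over the tested genes and pairs of FOG-2R3K5A arrays at 0.990 to 0.995. Wild-type replicate 1 was no farther from its group (0.982 and 0.986) than wild-type replicate 2 (0.982 and 0.985). Its highest correlation was to an array of the other genotype, FOG-2R3K5A replicate 2 (0.990), so results are also given without it. All 8 cardiomyocyte markers read 12.63 log2 units or more on every array. Over all 11113 genes tested, 196 changed at an adjusted p under 0.05 (155 higher, 41 lower in FOG-2R3K5A). That count ranged from 36 without FOG-2R3K5A replicate 1 to 450 without wild-type replicate 1.

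Rassf5 and Rassf4 rose in FOG-2R3K5A hearts, by 2.43-fold and 2.34-fold, while the differences of Rassf1, Rassf2, Rassf3, Rassf7 and Rassf8 did not pass the test. Rassf6 lay under the filter level of 6.30 log2 units (an intensity of 78.9) and was not tested. Thus 2 of 7 tested members were called, both higher, where 1.76% of all genes tested were called in either direction and 1.39% were called higher. Because the rises were known beforehand, nothing is read from that share. The genotypes did not overlap for these 2 members and overlapped for the other 5 tested, where 21.2% of all genes tested did not overlap, 11.5% with the higher values in FOG-2R3K5A.

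**Figure D1:**
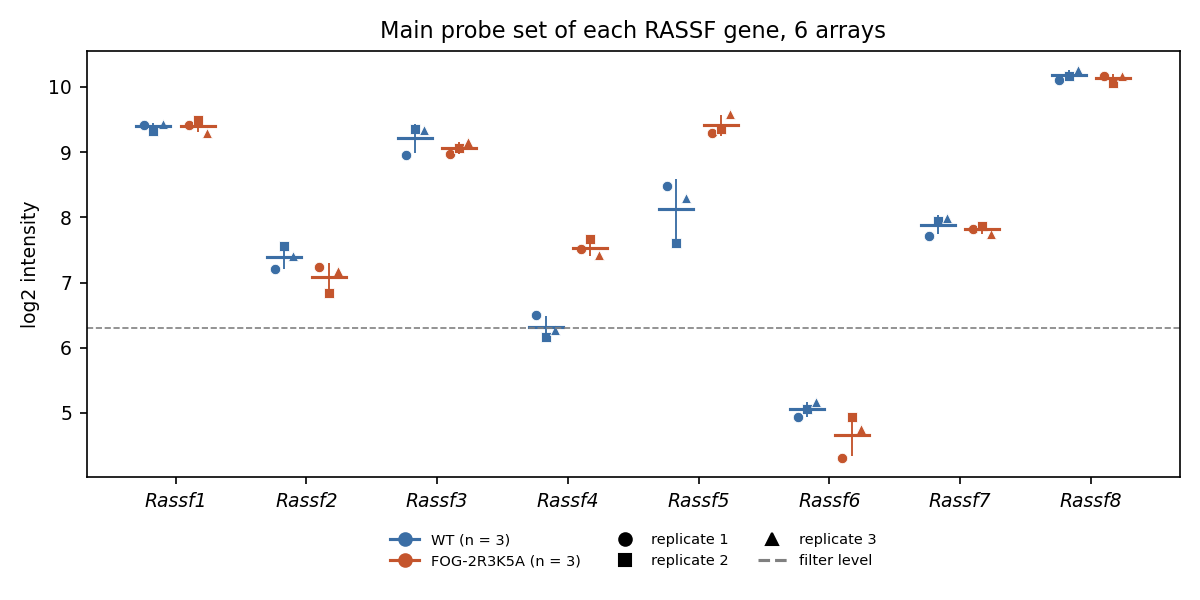
Log2 intensity (vertical axis) of the main probe set of each RASSF gene on the 3 wild-type (blue) and 3 FOG-2R3K5A (orange) arrays; symbols mark replicates, horizontal bars the mean and vertical lines 1 SD, and the dashed line is the filter level of 6.30. Every FOG-2R3K5A value lies above every wild-type value for Rassf4 and Rassf5, and the genotypes overlap for the others.

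Rassf5 encodes NORE1 and its shorter form RAPL, effectors of Ras and of Rap1, a small GTPase that controls integrin adhesion. Its main probe set, 1422638_s_at, read 8.49, 7.60 and 8.29 log2 units in wild-type replicates 1, 2 and 3 and 9.29, 9.35 and 9.58 in FOG-2R3K5A. In linear intensity these were 358.7, 194.3 and 313.1 against 624.9, 653.3 and 768.0. All FOG-2R3K5A arrays lay above the brightest wild-type array, and the wild-type arrays were the more spread, with 8.13 ± 0.46 (SD, n = 3) against 9.41 ± 0.16. The difference was 1.28 on the log2 scale (SE 0.20), or 2.43-fold with a 95% interval of 1.77 to 3.34 (limma, adjusted p = 0.0193 over all genes tested).

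The second Rassf5 probe set, 1422637_at, behaved in the same way. It read 7.62, 6.74 and 6.91 in wild type and 8.86, 8.83 and 8.54 in FOG-2R3K5A, again without overlap, a difference of 1.65 (SE 0.21, adjusted p = 0.0118 over all probe sets). The suffix _s_at marks a set whose probes match more than 1 transcript, and whether the pair of sets differ in size was not tested. They read the same RNA, so the second is not a further replicate.

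The call of Rassf5 was kept in 11 of 17 alternatives and lost in 6. Without wild-type replicate 1 the difference was 1.46 (adjusted p = 0.0119). Without wild-type replicate 2, the array with the lowest Rassf5 value, it was 1.02 (adjusted p = 0.0126). The adjusted p was 0.0582 without wild-type replicate 3, and 0.0699, 0.0511 and 0.102 without FOG-2R3K5A replicates 1, 2 and 3, with differences of 1.36, 1.34, 1.31 and 1.19. With Xist, a transcript of the inactive X chromosome, as a covariate for the sex of the embryos, the difference was 1.11 and the adjusted p 0.112, and with no filter on dim genes the adjusted p was 0.0700. The direction was the same in all 17 alternatives, but could not differ where the estimate is left unchanged (filter, trend, block and threshold). Nor could it differ with 1 array left out, with 16 added before log2, with array quality weights or with the mean over probe sets. The genotypes do not overlap on either Rassf5 probe set. The threshold of 0.1 keeps any call made at 0.05.

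Rassf4 encodes a classical member that binds activated Ras. Its main probe set, 1439622_at, read 6.50, 6.17 and 6.27 in wild-type replicates 1, 2 and 3 and 7.52, 7.67 and 7.42 in FOG-2R3K5A. The genotypes were again separate, with 6.31 ± 0.17 in wild type and 7.54 ± 0.13 in FOG-2R3K5A (SD, n = 3). The difference was 1.22 (SE 0.14), or 2.34-fold with a 95% interval of 1.88 to 2.90 (limma, adjusted p = 0.00448). The wild-type mean lay just above the filter level and wild-type replicates 2 and 3 lay below it, so the gene passed the filter mainly through the FOG-2R3K5A arrays.

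A second Rassf4 probe set, 1444009_at, read 6.00, 5.64 and 5.78 in wild type, all under the filter level, and 6.91, 7.01 and 7.13 in FOG-2R3K5A. Counted from the filter level, it was at least 1.64-fold higher. It passed the filter only through the FOG-2R3K5A arrays, so its call over all probe sets is no support for the rise. The remaining set, 1431038_at, read 2.66 to 4.62 in wild type and 3.21 to 4.22 in FOG-2R3K5A, too dim for a comparison. Rassf4 was called in each of the 15 alternatives in which it passed the filter, with differences of 1.08 to 1.32 and adjusted p of 0.00108 to 0.0394. Without wild-type replicate 1 the difference was 1.32 (adjusted p = 0.00457). The wild-type values left in that setting both lay under the filter level. There the gene passed the filter only through the FOG-2R3K5A arrays, so that call is no support for the rise.

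**Figure D2:**
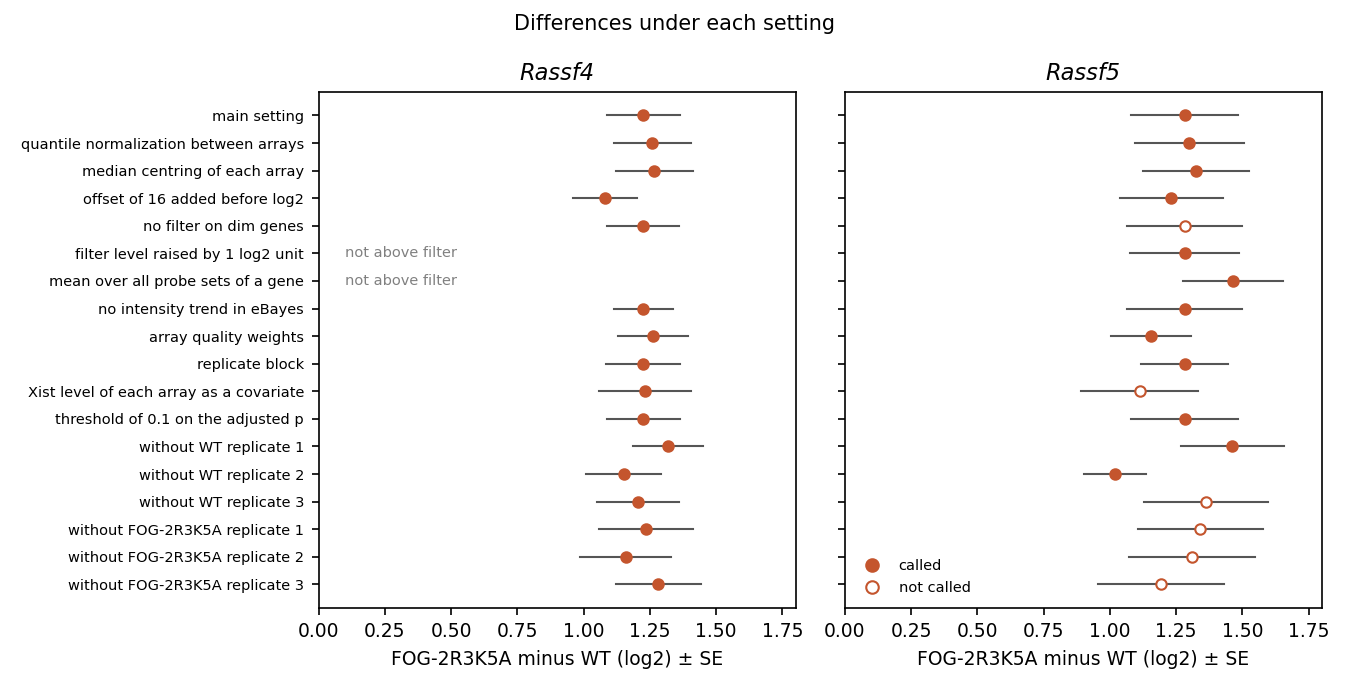
Difference between FOG-2R3K5A and wild type on the log2 scale (points) ± SE (lines) for Rassf4 and Rassf5 under the main setting and 17 alternatives; filled points were called at the setting's threshold and open points were not. All differences are positive, Rassf4 was called wherever it passed the filter, and Rassf5 was not called in 6 alternatives.

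The genomic sequence just upstream of these 2 genes is shown because they are the members that rose. Each run is the 250 bases before the gene's start in RefSeq (GRCm38.p6), written 5′ to 3′ on the gene's strand, with capitals for a match to the GATA factor motif (AGATAA, or the same letters with T first, G last or both, on either strand) or to the TEAD motif (the letters GGAATG on either strand). The Rassf4 window is chr6:116673837-116674086 and the Rassf5 window chr1:131200186-131200435, both on the minus strand.
Rassf4: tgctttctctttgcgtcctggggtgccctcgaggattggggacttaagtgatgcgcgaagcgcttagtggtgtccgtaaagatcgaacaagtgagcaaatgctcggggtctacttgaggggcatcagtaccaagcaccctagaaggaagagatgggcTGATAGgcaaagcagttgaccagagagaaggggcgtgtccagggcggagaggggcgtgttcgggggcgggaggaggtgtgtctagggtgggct
Rassf5: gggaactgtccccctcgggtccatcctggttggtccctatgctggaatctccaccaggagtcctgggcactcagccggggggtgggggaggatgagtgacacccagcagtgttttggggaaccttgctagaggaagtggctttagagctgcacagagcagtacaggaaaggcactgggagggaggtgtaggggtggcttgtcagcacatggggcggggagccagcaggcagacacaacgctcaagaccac

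Rassf4 had 1 GATA match, TGATAG, whose first base lies 93 bases upstream of the start, and the Rassf5 window held neither motif. Of 32851 such windows in the RefSeq table, 26.5% held a GATA match and 12.6% a TEAD match. Windows were found for 6 members, Rassf1 having 2 of them, and not for Rassf3 and Rassf8. Among the others only Rassf2 held a match, GGAATG at 213 bases upstream. A match is a description of the letters, and the windows without one say only that these letters are not there.

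Rassf1, best known for the tumour suppressor form RASSF1A, which binds microtubules and Mst kinases, did not differ detectably. Its main probe set, 1441737_s_at, read 9.42, 9.33 and 9.43 in wild type and 9.42, 9.49 and 9.30 in FOG-2R3K5A, with a difference of 0.0076 (95% interval -0.18 to 0.20, adjusted p = 0.976). The interval reaches up to a 1.15-fold rise. Another set had -0.022 and a dimmer one -0.30 (95% interval -0.70 to 0.11). The last, 1456994_at, lay far under the filter level, at 3.37 to 3.77 in wild type and 1.91 to 3.10 in FOG-2R3K5A. It was the 1 set among the 5 under the filter whose genotypes did not overlap, at a brightness where no fold is given. The mean over all its probe sets, which includes that dim set, turned the difference of Rassf1 to -0.30 (adjusted p = 0.168).

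Rassf2, which binds Ras and stabilises Mst kinases, had the most negative difference among the main probe sets tested, and it did not pass. Its main probe set, 1428392_at, read 7.21, 7.56 and 7.41 in wild type and 7.24, 6.84 and 7.18 in FOG-2R3K5A, so that wild-type replicate 1 lay within the FOG-2R3K5A range. The difference was -0.31 (95% interval -0.64 to 0.031, adjusted p = 0.382), and -0.40 without wild-type replicate 1 (adjusted p = 0.185). With each array left out in turn, it ran from -0.40 to -0.18, the last without FOG-2R3K5A replicate 2. A second set, 1443998_at, near the filter level, had -0.087, and the remaining one lay under it.

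Rassf3, a classical member close in sequence to Rassf1 and Rassf5, read 8.96, 9.35 and 9.34 in wild type and 8.97, 9.06 and 9.15 in FOG-2R3K5A on 1448546_at. Wild-type replicate 1 was again the array that overlapped the other genotype. The difference was -0.15 (95% interval -0.42 to 0.11, adjusted p = 0.578), and -0.28 without that array (adjusted p = 0.133). With each array left out in turn, it ran from -0.28 to -0.085, the last without wild-type replicate 2. On the second set, 1448547_at, it was -0.36 (95% interval -0.77 to 0.059), with 8.55 ± 0.42 in wild type against 8.19 ± 0.046 (SD, n = 3). The remaining Rassf3 set lay under the filter and read 7.02 on wild-type replicate 2 against 5.03 to 5.95 on the other arrays.

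Rassf6, known for promoting cell death, was read by a single probe set, at 4.93, 5.07 and 5.16 in wild type and 4.31, 4.94 and 4.76 in FOG-2R3K5A. Both genotypes lay under the filter level, so the gene has no test and no fold.

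The members with an amino-terminal Ras association domain did not pass either. Rassf7, which acts in spindle assembly during mitosis, read 7.72, 7.95 and 7.99 in wild type and 7.83, 7.87 and 7.74 in FOG-2R3K5A, with a difference of -0.074 (95% interval -0.33 to 0.18, adjusted p = 0.790). Rassf8, a protein of cell junctions, read 10.10, 10.17 and 10.26 in wild type and 10.17, 10.05 and 10.17 in FOG-2R3K5A, with a difference of -0.045 (95% interval -0.21 to 0.12, adjusted p = 0.814). Its other 2 probe sets had 0.018 and -0.0099. The upper ends of both intervals lie below the lower ends of those of Rassf4 and Rassf5 (0.91 and 0.82). The rises of Rassf4 and Rassf5 were known when the family was chosen, so nothing is read from this contrast.

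**Figure D3:**
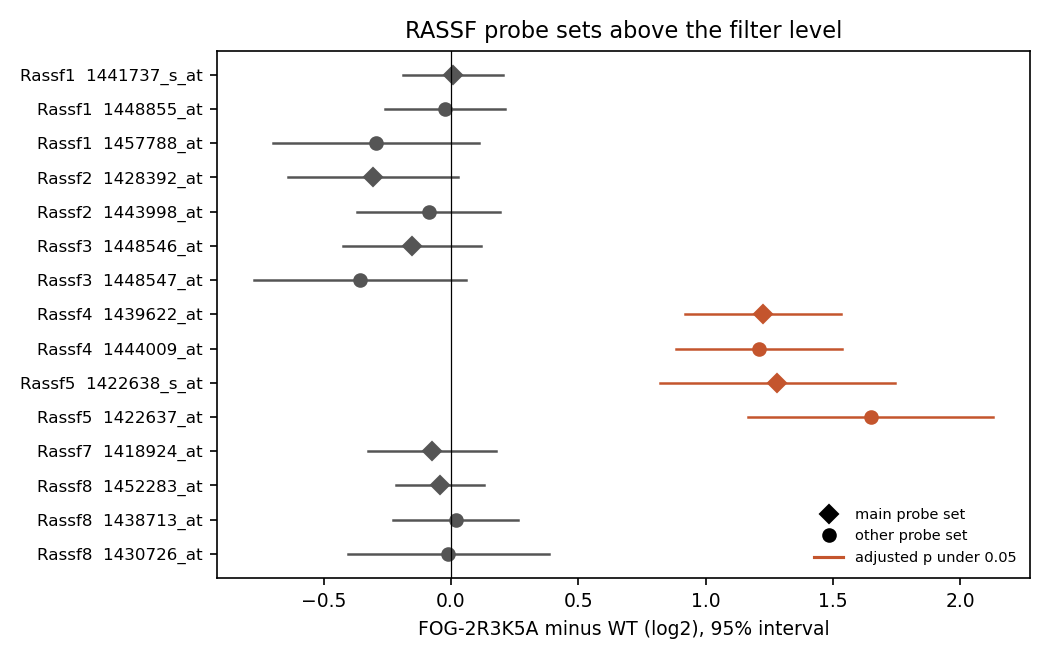
Log2 difference between the genotypes (FOG-2R3K5A minus wild type, horizontal axis), with the 95% interval of the fit (lines), for the 15 RASSF probe sets above the filter level; diamonds mark main probe sets and orange those called over all probe sets. The 4 sets of Rassf4 and Rassf5 lie between 1.21 and 1.65, and the other 11 between -0.36 and 0.018.

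Over all probe sets above the filter level, 15 of the 20 RASSF sets could be tested. The 4 that were called are those of Rassf4 and Rassf5 described above, where 0.99% of all probe sets tested were called. One of them, 1444009_at, passed the filter only through the FOG-2R3K5A arrays and all 4 belong to the members whose rises were known, so nothing is read from that count. The other 11 had differences of -0.36 to 0.018 and adjusted p of 0.401 to 0.986, and the genotypes overlapped for all of them.

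Wild-type replicate 1 held the highest wild-type value of Rassf4 and Rassf5 on each of their 4 probe sets above the filter, and the lowest wild-type value of the main probe sets of Rassf2, Rassf3, Rassf7 and Rassf8. On the same 4 sets wild-type replicate 2 held the lowest value. The median difference of the 7 tested members was -0.045, beside -0.011 for all genes tested, and 4 of the 5 members that were not called had negative differences.

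**Figure D4:**
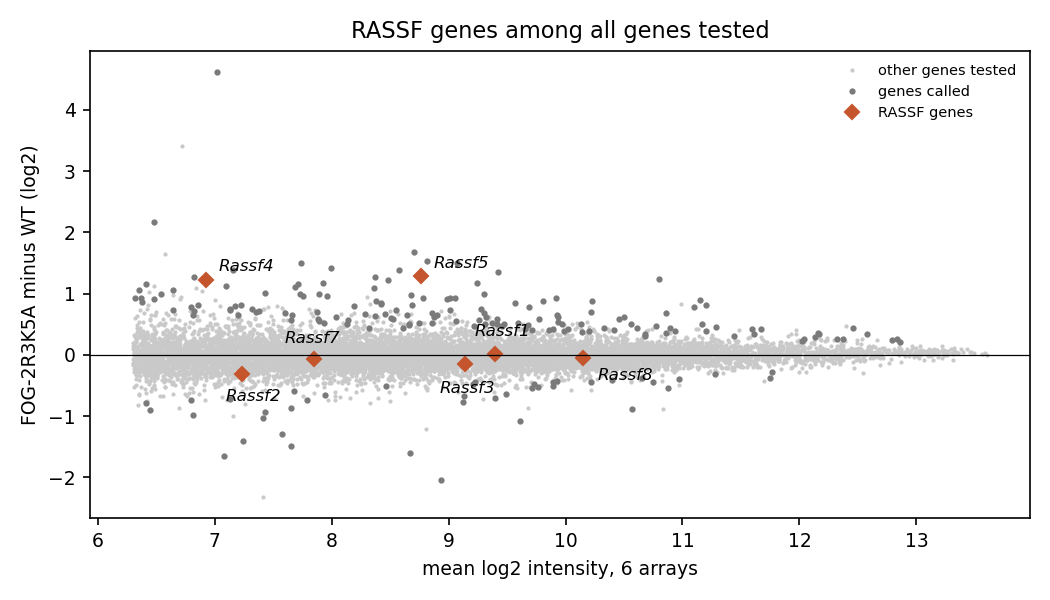
Mean log2 intensity over 6 arrays (horizontal axis) and difference between FOG-2R3K5A and wild type (vertical axis, log2) of all 11113 genes tested, with called genes in dark grey and the 7 tested RASSF genes as orange diamonds. Rassf4 and Rassf5 lie at 1.22 and 1.28, and the other 5 lie between -0.31 and 0.0076.

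The genes whose profile over the 6 arrays was most like that of Rassf4, each centred on its own mean, were P3h2, a collagen prolyl hydroxylase, Hacd4, an enzyme of very long chain fatty acid synthesis, and Apela, a ligand of the apelin receptor. Their root mean square differences from Rassf4 were 0.061, 0.078 and 0.10 log2 units. P3h2 read 7.58, 7.16 and 7.27 in wild type and 8.59, 8.60 and 8.36 in FOG-2R3K5A. Hacd4 and Apela differed by 1.27 and 1.16. The profile of Rassf5 had its nearest neighbours farther off, in Stk26 at 0.18, Sel1l3 at 0.18 and Pgap1 at 0.20. Stk26, a kinase of the Ste20 group, read 9.21, 8.41 and 8.81 in wild type and 9.75, 9.78 and 9.85 in FOG-2R3K5A, with the same order of wild-type arrays as Rassf5. These neighbours were picked by their likeness on these arrays, so their differences are a description.

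Of 52 tested genes in the 6 lists of relatives and of genes that act with RASSF proteins, 1 was called (1.92%), close to the 1.76% of all genes tested. Of 14 tested genes of the Hippo core (kinases, their adaptors and the factors they control), 0 were called by limma, and 0 also had an unadjusted p under 0.05. Their median difference was -0.035, with 6 positive and 8 negative, where 47.2% of all genes tested were positive and 14.7% had an unadjusted p under 0.05. The 2 with the smallest p were Tead2, a DNA-binding partner of Yap, at -0.34 (adjusted p = 0.406), and Nf2, an upstream activator of the kinases, at -0.17 (adjusted p = 0.428). Stk4, the Mst1 kinase that binds SARAH domains, read 9.79, 9.70 and 9.52 in wild type and 9.79, 9.77 and 9.49 in FOG-2R3K5A. Its scaffold Sav1 had -0.049.

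Of 6 Yap target genes 0 were called, and the median difference was 0.032. Ccn2, a matricellular protein, read 11.48, 11.63 and 11.48 in wild type and 11.76, 11.87 and 11.81 in FOG-2R3K5A, without overlap, and missed the threshold at a difference of 0.29 (limma, adjusted p = 0.0572, unadjusted p = 0.00109). Ankrd1, a nuclear and sarcomeric protein of cardiomyocytes, had 0.10 (adjusted p = 0.226, unadjusted p = 0.0190). The other 4 targets overlapped between genotypes.

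Of 10 tested Ras and Rap GTPases, the ligands of the Ras association domain, 0 were called. Rras had 0.27 (adjusted p = 0.263, unadjusted p = 0.0272) and Rap2c 0.18 (adjusted p = 0.359), and the median was 0.062 with 7 positive. Rap1a and Rap1b, bound by the RAPL form of Rassf5, had 0.042 and 0.092.

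The called gene, Rapgef5, was 1 of 12 tested regulators of Rap1. Rapgef5, an exchange factor that loads Rap GTPases with GTP, read 9.46, 9.50 and 9.35 in wild type and 9.94, 9.95 and 9.88 in FOG-2R3K5A. The genotypes were apart on every array, and the difference was 0.49 (SE 0.077, adjusted p = 0.0188). The call was lost without wild-type replicate 3 (adjusted p = 0.0784) or FOG-2R3K5A replicates 1, 2 or 3 (0.129, 0.0966 and 0.0533), with the Xist covariate (0.0842) and with the mean over its probe sets, where the difference was 0.25 (adjusted p = 0.166); these settings were applied to Rapgef5 after its value was seen. Rasgrp2, another exchange factor of Rap1, had -0.25 without overlap and did not pass (unadjusted p = 0.0169), and the median of the list was -0.018.

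Of 9 tested binding partners of single RASSF proteins 0 were called, with a median of -0.058. Pawr, a cell death protein known to bind Rassf2, read 8.98, 8.43 and 8.66 in wild type and 9.31, 9.24 and 9.39 in FOG-2R3K5A, a difference of 0.62 (limma, adjusted p = 0.0585, unadjusted p = 0.00115). Ppp1r13b, which encodes the p53 cofactor ASPP1, had 0.29 (adjusted p = 0.190, unadjusted p = 0.0127), also without overlap. Itgal, the integrin chain bound by RAPL in lymphocytes, had -0.42 (unadjusted p = 0.127) and overlapped. Outside the 8 members, Rassf10 had -0.055 (adjusted p = 0.926) and Rassf9 lay under the filter level.

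**Figure D5:**
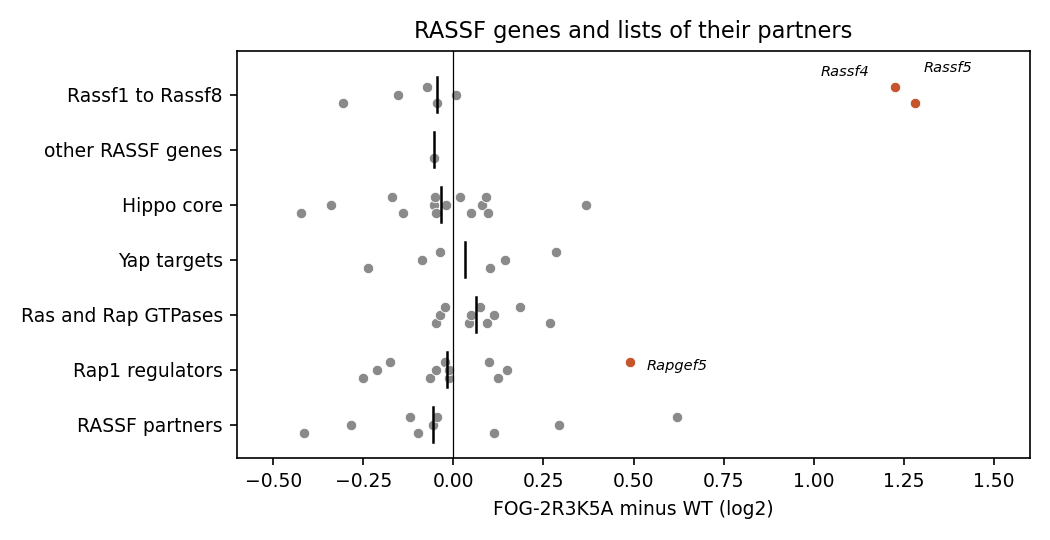
Difference between FOG-2R3K5A and wild type (log2, horizontal axis) of each tested gene (points) in the RASSF family and in 6 lists of relatives and partners, with the list median as a black bar and called genes in orange. Besides Rassf4 and Rassf5, the 1 called gene is Rapgef5, at 0.49.

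Markers of the epicardium, the heart's outer cell layer, rose on the same arrays as Rassf4 and Rassf5. The summed level of 10 mesothelial and epicardial markers was 12.23 to 12.31 log2 units in wild type and 12.69 to 12.85 in FOG-2R3K5A. Of the 10, 6 were called higher, where 1.39% of all genes tested were. Krt18 had 1.54, Krt8 1.42 and Msln 0.98, while Wt1 had -0.057 and Tcf21 -0.085. The list was chosen with earlier results of these data known, so nothing is read from that count. Among the 6, Muc16 read 5.81 to 5.93 in wild type, under the filter level. It passed the filter only through the FOG-2R3K5A arrays, so its call is no support for a rise. The part of these cells in the rises of Rassf4 and Rassf5 was not tested, and in whole hearts a change in the number of cells of a type and a change in RNA per cell cannot be told apart.

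RAPL and Rassf2 are known from leukocytes, whose markers differed less. The summed level of 13 leukocyte markers was 11.16 to 11.45 in wild type and 11.40 to 11.47 in FOG-2R3K5A, which overlap. By limma 0 of 9 tested were called, where 1.76% of all genes tested were. Of the 9, 2 had an unadjusted p under 0.05 (Fcgr3 at 0.60 and C1qa at 0.40), where 14.7% of all genes tested did. Ptprc, the marker of all leukocytes, lay under the filter level in both genotypes at 5.59 to 6.26 and 5.98 to 6.33, and the T cell marker Cd3e was at the floor of 0 on wild-type replicate 1 and FOG-2R3K5A replicate 1. Their part in the rises was not tested.

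Endothelial markers summed to 13.07 to 13.19 in wild type and 13.19 to 13.27 in FOG-2R3K5A, barely apart. Of 7, 1 was called, Vwf at 0.92, where 1.76% of all genes tested were. Emcn had 0.23 (limma, unadjusted p = 0.00545) and Cdh5 had 0.011. The genotypes did not overlap for 4 of the 7, where 21.2% of all genes tested did not. Kdr, among these 4, was lower, at -0.10. Fibroblast markers overlapped, at 14.57 to 14.69 and 14.65 to 14.76, and 0 of 6 were called, with Dcn at 0.24 and Lum at 0.31 (unadjusted p = 0.00158 and 0.00644). Cardiomyocyte markers summed to 16.26 to 16.31 and 16.35 to 16.37, with 0 of 8 called by limma. Of the 8, 3 had an unadjusted p under 0.05 (Myl7, Nppa and Myh6, at 0.10 to 0.14), where 14.7% of all genes tested did. The part of these cells in the rises was not tested.

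Of the lung and airway markers, Scgb3a2 and Sftpc were high on some FOG-2R3K5A arrays. Sftpc read 5.86 to 6.53 in wild type and 6.17, 5.80 and 9.43 in FOG-2R3K5A replicates 1, 2 and 3. Sftpb overlapped, at 6.12 to 7.03 in wild type and 6.04 to 6.88 in FOG-2R3K5A. Scgb3a2, a secretoglobin of airway cells, read 4.81 to 5.40 in wild type and 9.03, 4.87 and 11.36 on the FOG-2R3K5A arrays, and the summed level of 7 such markers was 7.71 to 8.46 in wild type and 9.49, 7.75 and 11.79 on these arrays. On FOG-2R3K5A replicates 1, 2 and 3, Rassf5 read 9.29, 9.35 and 9.58 and Rassf4 7.52, 7.67 and 7.42. The part of lung tissue in the rises was not tested. Nkx2-1, the defining transcription factor of lung, was at the floor of 0 on wild-type replicate 1 and FOG-2R3K5A replicate 2 and at most 2.97 on the others.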

How the data were processed

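The authors deposited linear probe set intensity values for 6 Affymetrix arrays, already scaled between arrays as the values show (array medians within 0.12 log2 units); the software and normalization behind them: not given in the sources used here. Precision is limited by the number of arrays. The platform annotation gave 1 symbol for 34945 of 45101 probe sets. Intensities were floored at 1 and log2-transformed. Each gene was read by its brightest probe set, and a gene was tested if its mean lay above 6.30, the median over the means of the non-control probe sets. A fold is a lower bound, counted from that level, where 1 genotype lay at or under it.

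The test was that of limma 3.58.1, run in R 4.3.3 (lmFit, then a trended eBayes, two-sided, Benjamini-Hochberg over all genes or probe sets tested, called at 0.05). The fit was tested on simulated data. Deviations from the genotype means correlated at -0.058, 0.13 and 0.41 between samples numbered 1, 2 and 3. Not every pair was above 0.1 and the labels do not pair the samples, so no block was used. All members were named, and of each list the called genes or the 2 with the smallest p; other listed genes were named after their values were seen. Likeness of profiles was the root mean square difference of centred log2 values. Upstream sequences came from the RefSeq table. Members, lists and tests were chosen with earlier results of these data known.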

Additional observations from a re-analysis of the deposited data

How the results depend on the processing

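The number of changed genes was 196, and 81 with no filter, 125 with the mean over all probe sets of a gene, 119 without the intensity trend, 429 with array quality weights, 43 with Xist as a covariate, 369 at a threshold of 0.1, and 36 to 450 without single arrays. The number of changed RASSF members was 2, and 1 with no filter, with the filter raised by 1 log2 unit (Rassf4 then untested), with the mean over probe sets (Rassf4 again untested) and with the Xist covariate, and 1 to 2 without single arrays. Rassf1 turned from 0.0076 to -0.30 with the mean over probe sets, and to -0.026 and -0.036 without wild-type replicate 2 or FOG-2R3K5A replicate 2 (-0.036 to 0.059 over single arrays left out), and Rassf7 from -0.074 to 0.0053 with the Xist covariate, none of them called. The cause of the other changes was not tested. Rassf2, Rassf3 and Rassf8 kept their direction and stayed uncalled in every alternative that tested them. With the replicate block (replicate number as a fixed term), 234 genes and the same 2 members were called, with an adjusted p of 0.0105 for Rassf4 and 0.0162 for Rassf5, and it changed no other call given here for a member. With 3 arrays per genotype the intervals of Rassf2 and Rassf3 reach down to -0.64 and -0.42, so falls up to those sizes are not excluded. The smallest fall that the test could have called was not worked out.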
